A study of Mus musculus with 12 samples.

Results

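The genes described here build the machinery that holds, shapes and moves chromosomes in dividing cells. A list of 40 genes was taken, covering 7 roles: centromeric chromatin, the inner kinetochore, the outer kinetochore, the corona with the Ska complex, shugoshin, condensin and cohesin. A member was a row of the expression table whose symbol matched the list, and 39 of the 40 had such a row among 24346 genes. The symbol Sgol2 had none, and the row named Sgol2a, which RefSeq lists as Sgo2a with the synonym Sgol2, is described separately and is not counted. All 39 were among the 12379 genes that passed the filter for testing, which asked for 0.5 FPKM or more in 3 or more of the 12 libraries. FPKM is a fragment count divided by transcript length and by the library's mapped total. Of these, 35 reached 0.5 FPKM in every library. Cenpk, Ska1, Ska3 and Ncapg fell short of it only in NIH-3T3 control libraries.

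The study set 2 mouse fibroblast lines side by side by bulk RNA-seq. The first group, NIH-3T3 SHHN, was the embryonic line NIH-3T3 (strain NIH/Swiss) given recombinant SHHN, the signalling amino-terminal part of Sonic hedgehog, at 1 µg/ml for 48 h. NIH-3T3 control cells received vehicle for the same time. MLg SHHN was the newborn lung line MLg (strain ddY, also labelled CCL206) under the same ligand and dose, and MLg control was that line with vehicle. Each group had 3 libraries. All 4 groups shared growth to 85% confluence and then a medium with 0.5% FBS, and each line stands for its tissue as 1 established cell line. The lines differ in strain, tissue and stage of origin and in the serum used for growth, which cannot be told apart. The labels do not say whether replicates were separate cultures, so p-values measure only the spread between these libraries.

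At each centromere the histone H3 variant CENP-A replaces the usual histone, and the inner kinetochore assembles on that chromatin. The inner kinetochore carries the Mis12 and Ndc80 complexes, which grip the microtubules of the spindle, with help from the Ska complex and from corona proteins. Condensin compacts chromosomes before they separate. Cohesin holds sister chromatids together from replication until anaphase, with shugoshin protecting it at centromeres, and it also organises chromatin loops in cells that are not dividing.

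In both lines the kinetochore and condensin genes were higher under SHHN, by roughly similar amounts. In NIH-3T3, 35 of the 39 members rose and 1, Zwint, fell, at an adjusted p below 0.05 in limma, while 3 (Cenpc1, Smc1a and Smc3) did not pass. Over all 12379 genes, 16.6% rose and 14.8% fell by the same rule. In MLg 38 members rose, none fell and Cenpb did not pass, against 12.8% of all genes that rose and 10.0% that fell. The members' median log2 fold change, on the log2(FPKM + 0.5) scale used for every fold change here, was 1.85 in NIH-3T3 and 1.87 in MLg, while the median over all tested genes was -0.01 in NIH-3T3 and 0.00 in MLg. In bulk RNA, more cells of a kind and more RNA per cell cannot be told apart.

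The size of the change was large against the background. In NIH-3T3, 28 members rose at least 2-fold, against 6.53% of all genes, and 17 rose at least 4-fold, against 2.02%. In MLg 29 members rose at least 2-fold, against 5.25% of all genes, and 12 at least 4-fold, against 1.41%. For 35 members every NIH-3T3 SHHN library lay above every NIH-3T3 control library, as it did for 21.6% of all genes. Zwint was the member whose SHHN libraries all lay below, as for 18.8% of all genes. In MLg 38 members had every SHHN library above every control library, against 21.4% of genes, and 0 had every one below, against 20.0%.

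The share of all FPKM that fell on the 39 members was also higher under SHHN in both lines. Abundant members weigh most in it. Among them were Cenpb, at 150 FPKM in NIH-3T3 control, and Zwint, at 87.3 FPKM there, which fell in NIH-3T3. The share was 0.162%, 0.185% and 0.178% in NIH-3T3 SHHN, against 0.0957%, 0.0715% and 0.0787% in NIH-3T3 control. It was 0.222%, 0.198% and 0.226% in MLg SHHN, against 0.0969%, 0.103% and 0.111% in MLg control. No control library reached any SHHN library in either line. The typical member stood at 11.4 FPKM in NIH-3T3 SHHN, 2.28 FPKM in NIH-3T3 control, 14.9 FPKM in MLg SHHN and 4.54 FPKM in MLg control, as the median over members of the group mean. The same median over all tested genes was between 11.0 and 11.5 FPKM in each of the 4 groups.

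**Figure D1:**
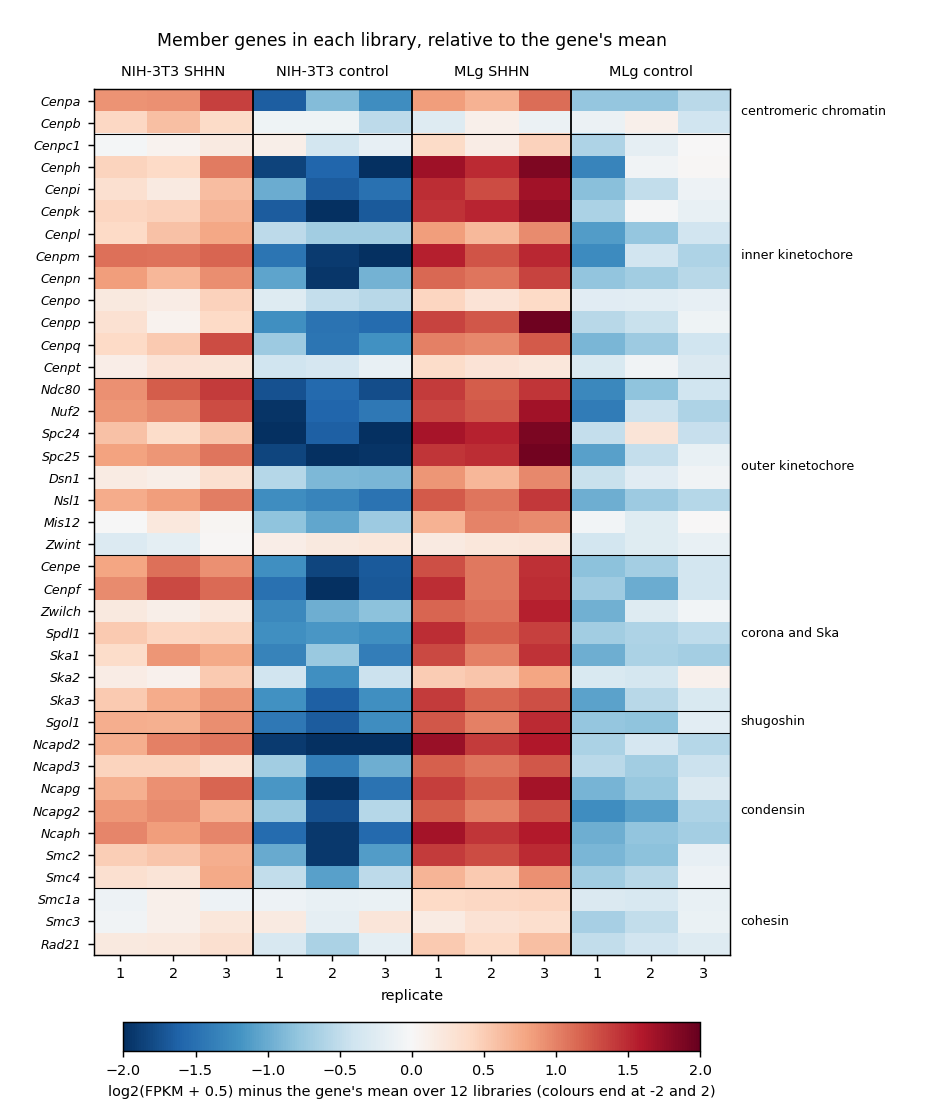
Heat map of the 39 members (rows, by role) in the 12 libraries (columns, by group and replicate), coloured by log2(FPKM + 0.5) minus the gene's mean over the 12 libraries, with colours ending at -2 and 2. The SHHN libraries of both lines are red for most kinetochore and condensin rows, and the pale rows are Cenpb, Cenpc1, Cenpo, Cenpt, Zwint and the cohesin genes.

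Within each group the libraries were close but not alike. The mean log2 level over the members was 3.68, 3.75 and 3.90 in NIH-3T3 SHHN and 2.2, 1.93 and 2.11 in NIH-3T3 control. In MLg it was 4.26, 4.14 and 4.41 under SHHN, against 2.46, 2.72 and 2.90 in control. NIH-3T3 control replicate 2 was lowest for the members; it also had the highest total of FPKM (659862, against 470218 to 614096 in the other libraries) and the fewest genes above 0 (13401, against 13957 to 14793). Without that library the NIH-3T3 counts were still 35 higher and 1 lower, and the median was 1.68.

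The promoters of a few members are given here because the members moved together and their promoters can be read for sequence elements known from cell-cycle genes. Cenpa, Spc25 and Ncapd2 stand for members that rose in both lines, Smc3 and Zwint for members whose response differed between the lines. The response of Ncapd2 differed between the lines as well. Each window runs from 250 bases before to 50 after an annotated start, from RefSeq on GRCm38.p6. That is the mm10 build named in the submitters' processing notes. The start used is not always the outermost one of the gene. For some members, such as Ncapd2, Sgol1 and Cenpt, it lies inside the annotated gene. Capitals mark matches on either strand to 3 elements: the cell cycle homology region or CHR (TTTGAA, or TTCAAA on the other strand), the CCAAT box (CCAAT, or ATTGG), and E2F sites (TTGGCGC and also TTCCCGC and also TTGCCGC and also TTCGCGC, and their reverse complements). The Cenpa window is chr5:30666636-30666935 on the plus strand and the Spc25 window chr2:69206164-69206463 on the minus strand. The Ncapd2 window is chr6:125191537-125191836 on the minus strand. The Smc3 window is chr19:53600146-53600445 and the Zwint window chr10:72654596-72654895, both on the plus strand.
Cenpa: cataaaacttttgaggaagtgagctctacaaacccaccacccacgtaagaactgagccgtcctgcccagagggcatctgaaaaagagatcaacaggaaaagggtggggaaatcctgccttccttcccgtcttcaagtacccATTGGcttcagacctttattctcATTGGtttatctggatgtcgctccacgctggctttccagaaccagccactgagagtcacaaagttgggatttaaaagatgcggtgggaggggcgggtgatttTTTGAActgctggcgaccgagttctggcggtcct
Spc25: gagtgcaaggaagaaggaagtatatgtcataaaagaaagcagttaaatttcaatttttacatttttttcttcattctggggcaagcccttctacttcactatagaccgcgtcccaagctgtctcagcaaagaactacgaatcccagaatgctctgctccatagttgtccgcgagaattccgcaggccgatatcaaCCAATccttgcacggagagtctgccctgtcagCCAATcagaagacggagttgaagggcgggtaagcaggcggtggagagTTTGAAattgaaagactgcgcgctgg
Ncapd2: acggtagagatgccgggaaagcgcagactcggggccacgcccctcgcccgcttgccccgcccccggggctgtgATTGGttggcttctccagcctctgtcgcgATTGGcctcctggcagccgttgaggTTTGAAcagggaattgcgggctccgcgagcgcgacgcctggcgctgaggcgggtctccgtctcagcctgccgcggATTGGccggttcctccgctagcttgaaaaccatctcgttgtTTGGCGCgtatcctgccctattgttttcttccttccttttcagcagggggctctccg
Smc3: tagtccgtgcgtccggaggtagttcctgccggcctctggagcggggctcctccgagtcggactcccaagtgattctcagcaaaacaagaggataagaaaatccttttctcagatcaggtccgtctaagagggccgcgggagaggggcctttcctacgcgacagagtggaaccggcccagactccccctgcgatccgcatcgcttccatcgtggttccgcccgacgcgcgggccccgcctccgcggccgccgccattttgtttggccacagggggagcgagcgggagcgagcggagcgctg
Zwint: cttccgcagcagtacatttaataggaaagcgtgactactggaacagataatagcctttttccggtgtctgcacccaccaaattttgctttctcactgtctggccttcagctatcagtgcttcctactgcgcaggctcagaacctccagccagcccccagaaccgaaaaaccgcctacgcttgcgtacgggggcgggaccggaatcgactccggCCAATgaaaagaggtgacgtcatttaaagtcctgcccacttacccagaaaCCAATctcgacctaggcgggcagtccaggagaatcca

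Counting the annotated start of each window as 0, the Cenpa window held a CHR match at 16 to 21 and CCAAT boxes starting at -109 and -86. The Spc25 window held a CHR match at 24 to 29 and CCAAT boxes starting at -55 and -23. Ncapd2 had a CHR match starting at -123, CCAAT boxes starting at -177, -148 and -48, and an E2F match starting at -7. Zwint had CCAAT boxes starting at -37 and 13 and neither of the other elements, and the Smc3 window held no match to any of the 3. The windows of Nuf2, Cenpp and Cenpt, which rose in both lines, held no match either. Their log2 fold changes were 2.70, 1.67 and 0.52 in NIH-3T3 and 2.24, 1.87 and 0.51 in MLg. The Cenpt window, chr8:105851959-105852258 on the minus strand, lies inside the annotated gene, chr8:105844669-105855086. Its lack of matches therefore does not describe the outermost start of Cenpt.

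Windows were matched by symbol for 33 of the 39 members, as 36 windows; Spc24, Nsl1, Zwilch, Ska1, Smc4 and Rad21 had none in the table. A CHR match was present in 36.1% of the members' windows, against 17.9% of all 32851 windows and 11.8% of the 11943 windows of tested genes. A CCAAT box was present in 63.9% of the members' windows, against 37.4% of all windows and 38.2% of those of tested genes. An E2F match was present in 47.2% of the members' windows, against 9.57% of all windows and 16.7% of those of tested genes. Of the members' 20 E2F matches 1 shared letters with a CCAAT box, and none of the 14 CHR matches did. These are matches of letters and not tested sites, and the shares are a description.

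The members were also split by each element. The 13 with a CHR match had a median log2 fold change of 2.13 in NIH-3T3 (1.22 to 2.94) and 2.02 in MLg (1.57 to 2.18). The 20 without one had a median of 1.34 in NIH-3T3 (-0.34 to 2.92) and 1.41 in MLg (0.05 to 2.38), so the ranges overlapped widely. The 21 with a CCAAT box had a median of 2.13 in NIH-3T3, against 1.54 for the 12 without, and 1.87 in MLg, against 1.80. Members with an E2F match had a median of 1.66 in NIH-3T3, against 2.01 for those without, and 1.84 in MLg, against 1.88. None of these medians was tested.

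**Figure D2:**
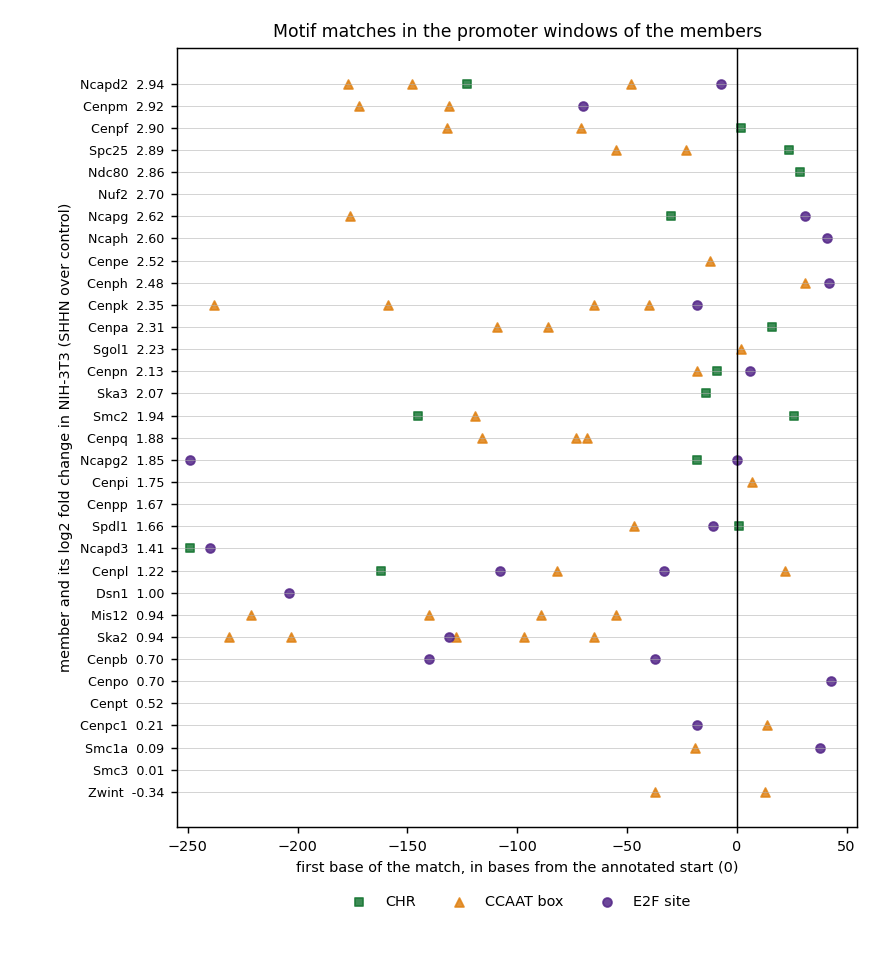
Position of each match (x axis, first base of the match in bases from the annotated start at 0) in the promoter windows of the 33 members with a window, ordered from top to bottom by log2 fold change in NIH-3T3, which is printed beside each name. Squares are CHR matches, triangles CCAAT boxes and circles E2F matches. Of the 14 CHR matches, 10 start within 60 bases before the annotated start or after it. Log2 fold changes ran from 1.22 to 2.94 for members with a CHR match and from -0.34 to 2.92 for those without. The Ncapd3 CHR match lies in a window further into the gene (chr9:27060166-27060465), and its first window has none. For some members, such as Ncapd2, Sgol1 and Cenpt, the annotated start used lies inside the annotated gene.

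Of the centromeric chromatin genes, Cenpa rose in both lines and Cenpb in NIH-3T3. Cenpa encodes the histone variant that marks the centromere and lies at chr5:30666877-30674837. It was at 31.8, 32.2 and 44.2 FPKM in NIH-3T3 SHHN and at 5.03, 9.03 and 6.87 FPKM in NIH-3T3 control. The MLg SHHN libraries had 30.5, 27.7 and 37.1 FPKM, against 9.65, 9.64 and 11.4 FPKM in MLg control. SHHN libraries of both lines stood at a like level, well clear of the controls. The log2 fold change was 2.31 (SE 0.19, adjusted p = 7.14e-07) in NIH-3T3 and 1.58 (SE 0.19, adjusted p = 3.32e-05) in MLg; the difference of 0.73 between the lines did not pass (SE 0.27, adjusted p = 0.098).

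Cenpb encodes a protein that binds a short DNA box in centromeric satellite repeats, and it was the most abundant member in all 4 groups. It was at 234, 266 and 228 FPKM in NIH-3T3 SHHN and at 165, 164 and 122 FPKM in NIH-3T3 control. MLg libraries held 146, 188 and 161 FPKM under SHHN and 161, 189 and 133 FPKM with vehicle. The NIH-3T3 groups were separate, while the MLg groups overlapped fully. This gave a log2 fold change of 0.70 in NIH-3T3 (SE 0.16, adjusted p = 0.00405). In MLg it was 0.05 (SE 0.16, adjusted p = 0.88). The difference between the lines, 0.65 (SE 0.22), had an adjusted p of 0.0727 and did not pass. It passed with the replicate number as a block (adjusted p = 0.0381) and with quantile normalization (0.0458). Leaving out NIH-3T3 control replicate 2 (0.0467) or MLg control replicate 3 (0.0333) also made it pass.

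The inner kinetochore members belong to the constitutive centromere associated network, which links CENP-A chromatin to the outer kinetochore. In NIH-3T3, 10 of the 11 rose, with a median log2 fold change of 1.75 over the 11, and in MLg all 11 rose, with a median of 1.84. Cenpm, a small subunit that sits with CENP-H, CENP-I and CENP-K, had the largest change of the 11 in both lines. It was at 23.7, 23.5 and 24.8 FPKM in NIH-3T3 SHHN and at 3.59, 2.51 and 2.23 FPKM in NIH-3T3 control. Under SHHN, MLg stood at 32.8, 26.4 and 31.4 FPKM, and in control at 4.22, 8.17 and 6.83 FPKM. The gap between groups was several times the spread within them. The log2 fold change of Cenpm was 2.92 in NIH-3T3 (SE 0.20, adjusted p = 1.32e-07) and 2.19 in MLg (SE 0.20, adjusted p = 3.18e-06).

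Its partners Cenph, Cenpi and Cenpk rose as well. Cenph averaged 10.1 FPKM in NIH-3T3 SHHN and 1.39 FPKM in NIH-3T3 control, with 21.3 FPKM in MLg SHHN and 4.81 FPKM in MLg control. Cenpi averaged 4.87 FPKM in NIH-3T3 SHHN and 1.11 FPKM in NIH-3T3 control, with 11.1 FPKM in MLg SHHN and 2.52 FPKM in MLg control. Cenpk averaged 4.70 FPKM in NIH-3T3 SHHN and 0.527 FPKM in NIH-3T3 control, the lowest level of any member in any group, with 10.2 FPKM in MLg SHHN and 2.54 FPKM in MLg control. All 3 stood higher in MLg than in NIH-3T3, with SHHN and without. Their log2 fold changes were 2.48, 1.75 and 2.35 in NIH-3T3 and 2.15, 1.97 and 1.84 in MLg.

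The other inner subunits split into those with large and those with small changes. Cenpl and Cenpn, which form a pair that contacts CENP-A nucleosomes, had log2 fold changes of 1.22 and 2.13 in NIH-3T3 and 1.57 and 1.87 in MLg. Cenpp and Cenpq, of the group that also holds CENP-O and CENP-U, had 1.67 and 1.88 in NIH-3T3 and 1.87 and 1.74 in MLg. Cenpo, from the same group, rose by less, at 0.70 in NIH-3T3 (adjusted p = 0.0014) and 0.57 in MLg (adjusted p = 0.00703). Annotated exons of Cenpp and Cenpo overlap genes on the opposite strand, over 27.5% of exon bases with Ippk and 24.3% with Adcy3, and no source used here says whether the libraries kept strand.

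Cenpt, a histone-fold protein that recruits the Ndc80 complex, had one of the smallest changes of the members that rose in both lines. It was at 11.4, 12.7 and 12.6 FPKM in NIH-3T3 SHHN and at 7.81, 8.13 and 9.33 FPKM in NIH-3T3 control. In MLg it was at 13.5, 12.7 and 12.2 FPKM under SHHN and at 8.37, 9.90 and 8.47 FPKM in control. The groups were narrow and did not overlap in either line. Its log2 fold change was 0.52 in NIH-3T3 (SE 0.12, adjusted p = 0.00365) and 0.51 in MLg (SE 0.12, adjusted p = 0.00552). Both calls ended in a test against a fold of 1.2 (adjusted p = 0.115 in NIH-3T3 and 0.174 in MLg).

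Cenpc1, which encodes CENP-C, the other protein that ties CENP-A chromatin to the Mis12 complex, was the inner subunit that did not pass in NIH-3T3. It was at 11.4, 12.4 and 13.4 FPKM in NIH-3T3 SHHN and at 12.8, 9.00 and 10.4 FPKM in NIH-3T3 control. The MLg SHHN libraries had 15.4, 13.0 and 16.3 FPKM, against 7.52, 10.4 and 11.8 FPKM in MLg control. The NIH-3T3 groups overlapped and the MLg groups did not. The log2 fold change was 0.21 in NIH-3T3 (SE 0.17, 95% interval -0.16 to 0.57, adjusted p = 0.389) and 0.58 in MLg (SE 0.17, adjusted p = 0.0227). The MLg call ended when 1 library was left out, either MLg SHHN replicate 1 (adjusted p = 0.075), replicate 3 of the same group (0.0965) or MLg control replicate 1 (0.104), and the difference between the lines did not pass (-0.38, adjusted p = 0.329).

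In the outer kinetochore the 4 subunits of the Ndc80 complex, which binds microtubules directly, rose together. Ndc80 averaged 14.5 FPKM in NIH-3T3 SHHN and 1.55 FPKM in NIH-3T3 control, with 16.2 FPKM in MLg SHHN and 3.30 FPKM in MLg control. Its partner Nuf2, with the largest change of the outer group in MLg, was at 12.2, 12.8 and 16.5 FPKM in NIH-3T3 SHHN and at 1.27, 1.79 and 2.05 FPKM in NIH-3T3 control. In MLg, Nuf2 was at 16.7, 15.7 and 21.5 FPKM under SHHN and at 2.10, 4.56 and 3.97 FPKM in control. No control library came near an SHHN library in either line. The Nuf2 log2 fold change was 2.70 in NIH-3T3 (SE 0.23, adjusted p = 1.05e-06) and 2.24 in MLg (SE 0.23, adjusted p = 8.9e-06), and that of Ndc80 was 2.86 and 2.18.

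Spc25 joins Spc24 at the end of the complex that faces the centromere. It was at 16.6, 17.7 and 20.0 FPKM in NIH-3T3 SHHN and at 2.23, 1.78 and 2.03 FPKM in NIH-3T3 control. MLg libraries held 25.9, 26.9 and 36.9 FPKM under SHHN and 4.14, 6.55 and 8.35 FPKM with vehicle. Both lines showed clear separation, with MLg above NIH-3T3 in each condition. In limma the log2 fold change was 2.89 in NIH-3T3 (SE 0.21, adjusted p = 1.71e-07) and 2.18 in MLg (SE 0.21, adjusted p = 3.74e-06). Spc24 averaged 11.2 FPKM in NIH-3T3 SHHN and 1.66 FPKM in NIH-3T3 control, with 26.1 FPKM in MLg SHHN and 6.74 FPKM in MLg control.

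FPKM is scaled to transcript length, so subunits can be set beside each other. Such ratios also depend on the gene annotation used, which is not given, and on overlap with other genes. The ratio of Ndc80 to Nuf2 was 1.05 ± 0.0859 in NIH-3T3 SHHN and 0.944 ± 0.235 in NIH-3T3 control, with 0.912 ± 0.101 in MLg SHHN and 0.960 ± 0.220 in MLg control (SD, n = 3 each). The ratio of Spc25 to Spc24 was 1.62 ± 0.192 in NIH-3T3 SHHN and 1.29 ± 0.410 in NIH-3T3 control, with 1.14 ± 0.109 in MLg SHHN and 1.00 ± 0.458 in MLg control. Both ratios differed between SHHN and control by less than the spread of the control libraries.

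The Mis12 complex, which bridges inner kinetochore and Ndc80 complex, was uneven. Nsl1 averaged 6.19 FPKM in NIH-3T3 SHHN and 0.942 FPKM in NIH-3T3 control, with 8.14 FPKM in MLg SHHN and 1.67 FPKM in MLg control. Its log2 fold change was 2.21 in NIH-3T3 and 2.0 in MLg. Dsn1 rose by 1.00 and 1.08 on the log2 scale in NIH-3T3 and MLg, and Mis12 by 0.94 and 0.98. The SE of these 6 values lay between 0.13 and 0.15, and the gap between Nsl1 and these subunits was larger than that. Pmf1, the remaining subunit of the complex and not among the members, had 2.03 in NIH-3T3 (SE 0.19) and 1.42 in MLg (SE 0.19), closer to Nsl1 in NIH-3T3. The controls of Dsn1 and Mis12 were higher to begin with than that of Nsl1, at 3.89 FPKM for Dsn1 and 7.17 FPKM for Mis12 in NIH-3T3 control and at 5.92 and 12.5 FPKM in MLg control.

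Zwint, which interacts with the kinetochore scaffold KNL1 and takes part in recruiting the RZZ complex, was the member that went opposite ways. It was at 63.4, 66.9 and 77.8 FPKM in NIH-3T3 SHHN and at 84.2, 88.0 and 89.8 FPKM in NIH-3T3 control. Under SHHN, MLg stood at 86.6, 90.2 and 90.8 FPKM, and in control at 59.5, 65.1 and 69.5 FPKM. Every NIH-3T3 SHHN library lay below every NIH-3T3 control library, and every MLg SHHN library lay above every MLg control library. This gave a log2 fold change of -0.34 in NIH-3T3 (SE 0.10, adjusted p = 0.0252) and 0.46 in MLg (SE 0.10, adjusted p = 0.00485). The difference between the lines was -0.80 (SE 0.15, adjusted p = 0.00289) and passed under every alternative tried. The NIH-3T3 call itself ended when replicate 1 (adjusted p = 0.0964) or replicate 2 (0.0846) of the SHHN group or replicate 3 of the control group (0.0716) was left out.

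**Figure D3:**
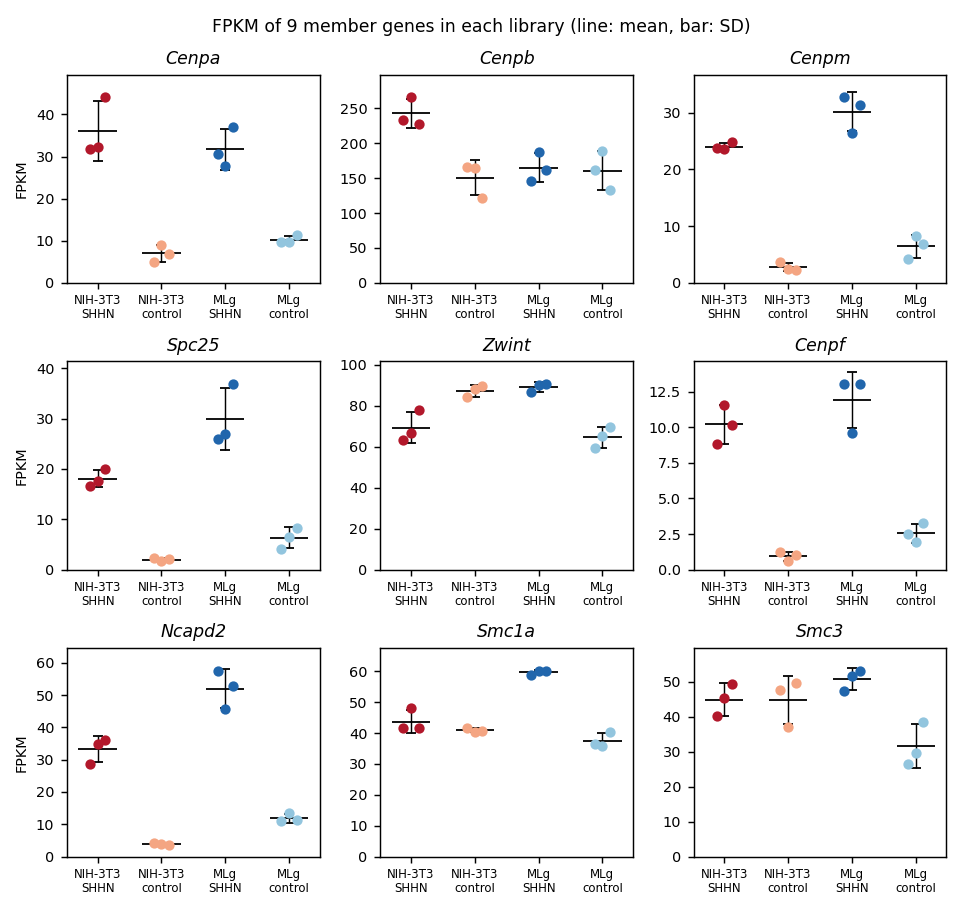
FPKM (y axis, linear, from 0) of 9 members in each of the 12 libraries, by group; points are libraries, the long line is the group mean and the bar its SD (n = 3). Cenpa, Cenpm, Spc25, Cenpf and Ncapd2 are higher under SHHN in both lines, the Cenpb groups are separate in NIH-3T3 and overlap in MLg, the Smc1a and Smc3 groups overlap in NIH-3T3 and are separate in MLg, and Zwint runs in opposite directions.

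All 7 corona, adaptor and Ska genes rose in both lines, with a median log2 fold change of 1.82 in NIH-3T3 and 1.93 in MLg. Cenpf, a very large coiled-coil protein of the corona that peaks in G2 and mitosis, had the largest change of the 7 in each line. It was at 8.85, 11.6 and 10.2 FPKM in NIH-3T3 SHHN and at 1.24, 0.594 and 1.01 FPKM in NIH-3T3 control. In MLg it was at 13.1, 9.62 and 13.0 FPKM under SHHN and at 2.48, 1.96 and 3.28 FPKM in control. SHHN libraries of the lines overlapped each other, whereas the NIH-3T3 control libraries were all below those of MLg. In limma the log2 fold change was 2.90 in NIH-3T3 (SE 0.20, adjusted p = 1.53e-07) and 2.02 in MLg (SE 0.20, adjusted p = 6.88e-06). The difference of 0.88 had an adjusted p of 0.0634. It passed with a pseudocount of 0.1 FPKM (adjusted p = 0.0496) and with median-ratio scaling (0.0484). Leaving out NIH-3T3 control replicate 1 (0.0375) or MLg control replicate 2 (0.0473) also made it pass.

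Cenpe, the kinesin that carries chromosomes towards the spindle equator, averaged 9.05 FPKM in NIH-3T3 SHHN and 1.19 FPKM in NIH-3T3 control, with 11.6 FPKM in MLg SHHN and 2.77 FPKM in MLg control. Zwilch, a subunit of the RZZ complex that brings dynein and checkpoint proteins to kinetochores, averaged 5.86 FPKM in NIH-3T3 SHHN and 2.28 FPKM in NIH-3T3 control, with 13.2 FPKM in MLg SHHN and 3.83 FPKM in MLg control. Spdl1, the adaptor for dynein, had log2 fold changes of 1.66 in NIH-3T3 and 1.95 in MLg. For Zwilch the value was 1.21 in NIH-3T3 and 1.70 in MLg, and for neither gene did the difference between lines pass.

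The Ska complex helps kinetochores keep hold of shortening microtubules. Ska1 and Ska3 had log2 fold changes of 1.82 and 2.07 in NIH-3T3 and 2.02 and 1.93 in MLg. Ska2, the remaining subunit, which shares 10.8% of its annotated exon bases with the antisense gene Gm11491, was the most abundant and had the smallest change of the 7. It was at 26.3, 25.2 and 34.2 FPKM in NIH-3T3 SHHN and at 18.0, 9.83 and 17.4 FPKM in NIH-3T3 control. The MLg SHHN libraries had 34.0, 35.1 and 41.1 FPKM, against 19.2, 18.4 and 25.2 FPKM in MLg control. The groups did not overlap, although NIH-3T3 control replicate 2 was low. The log2 fold change was 0.94 in NIH-3T3 (SE 0.21, adjusted p = 0.00362) and 0.81 in MLg (SE 0.21, adjusted p = 0.012), and the MLg call ended when SHHN replicate 3 (adjusted p = 0.0595) or control replicate 2 (0.0551) of that line was left out.

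Sgol1 encodes the shugoshin that shields centromeric cohesin in mitosis. It was at 6.42, 6.33 and 7.39 FPKM in NIH-3T3 SHHN and at 1.05, 0.818 and 1.26 FPKM in NIH-3T3 control. MLg libraries held 9.37, 7.87 and 11.2 FPKM under SHHN and 1.93, 1.89 and 3.10 FPKM with vehicle. Levels under SHHN were several times those in control in each line. Its log2 fold change was 2.23 in NIH-3T3 (SE 0.19, adjusted p = 7.27e-07) and 1.85 in MLg (SE 0.19, adjusted p = 6.42e-06). The row named Sgol2a had values of 2.06 in NIH-3T3 (adjusted p = 9.64e-06) and 2.08 in MLg (adjusted p = 1.19e-05).

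All 7 condensin genes rose at least 2-fold in both lines, with a median log2 fold change of 1.94 in NIH-3T3 and 2.08 in MLg. Smc2 and Smc4 form the ATPase core of both condensins, Ncapd2, Ncapg and Ncaph belong to condensin I, and Ncapd3 and Ncapg2 belong to condensin II. Ncapd2 was at 28.7, 34.9 and 36.2 FPKM in NIH-3T3 SHHN and at 4.17, 3.86 and 3.65 FPKM in NIH-3T3 control. Under SHHN, MLg stood at 57.6, 45.6 and 52.8 FPKM, and in control at 10.8, 13.3 and 11.3 FPKM. The 4 groups were fully separate from one another. Ncapd2 had the largest log2 fold change of all members in NIH-3T3, 2.94 (SE 0.13, adjusted p = 5.09e-09), with 2.09 in MLg (SE 0.13, adjusted p = 1.56e-07). The difference of 0.85 between the lines passed (SE 0.18, adjusted p = 0.008).

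Ncaph, the kleisin of condensin I, which closes the ring, had the largest change of all members in MLg. It was at 16.9, 15.2 and 16.8 FPKM in NIH-3T3 SHHN and at 2.53, 1.82 and 2.50 FPKM in NIH-3T3 control. In MLg it was at 27.6, 23.2 and 26.1 FPKM under SHHN and at 3.97, 4.63 and 5.01 FPKM in control. Libraries of a group lay close together, and the groups were far apart. This gave a log2 fold change of 2.60 in NIH-3T3 (SE 0.14, adjusted p = 1.36e-08) and 2.38 in MLg (SE 0.14, adjusted p = 8.08e-08). Ncapg, the remaining condensin I subunit, had 2.62 in NIH-3T3 and 2.08 in MLg; it shares 20.8% of its annotated exon bases with Lcorl on the opposite strand.

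In NIH-3T3 the 3 condensin I subunits had log2 fold changes of 2.60 to 2.94 and in MLg of 2.08 to 2.38. For condensin II, Ncapd3 had a log2 fold change of 1.41 in NIH-3T3 (SE 0.16) and 1.73 in MLg (SE 0.16). Ncapg2 had 1.85 in NIH-3T3 (SE 0.26) and 2.15 in MLg (SE 0.26). The ratio of Ncapd2 to Ncapd3 was 4.71 ± 0.761 in NIH-3T3 SHHN and 1.70 ± 0.465 in NIH-3T3 control, with 4.15 ± 0.322 in MLg SHHN and 3.50 ± 0.757 in MLg control (SD, n = 3 each). NIH-3T3 control had the lowest ratio of the 4 groups, and the SHHN groups of the lines differed by less than the SD of the NIH-3T3 one. The ratio of Ncapg to Ncapg2 was 0.918 ± 0.228 in NIH-3T3 SHHN and 0.424 ± 0.129 in NIH-3T3 control, with 1.01 ± 0.0779 in MLg SHHN and 1.07 ± 0.00612 in MLg control. These ratios were not tested. Ncapg, which overlaps Lcorl, was at only 1.68, 0.41 and 1.24 FPKM in NIH-3T3 control.

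The core subunits did not move equally. Smc4 was at 38.7, 37.2 and 52.6 FPKM in NIH-3T3 SHHN and at 21.9, 14.3 and 21.4 FPKM in NIH-3T3 control. The MLg SHHN libraries had 49.9, 45.0 and 59.1 FPKM, against 18.9, 21.1 and 28.7 FPKM in MLg control. The groups were separate in both lines, with wide spread within each. Its log2 fold change, the smallest of the condensins, was 1.14 in NIH-3T3 (SE 0.20, adjusted p = 0.000559) and 1.16 in MLg (SE 0.20, adjusted p = 0.000633). Smc2 averaged 15.2 FPKM in NIH-3T3 SHHN and 3.72 FPKM in NIH-3T3 control, with 26.8 FPKM in MLg SHHN and 6.37 FPKM in MLg control. The ratio of Smc2 to Smc4 was 0.359 ± 0.0393 in NIH-3T3 SHHN and 0.189 ± 0.0295 in NIH-3T3 control, with 0.526 ± 0.0354 in MLg SHHN and 0.274 ± 0.0279 in MLg control. It was higher under SHHN in every library of each line, and it stayed below 1 throughout.

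The cohesin genes had smaller changes than most members. They form a ring of Smc1a, Smc3 and the kleisin Rad21, and in NIH-3T3 only Rad21 passed, while in MLg all 3 rose, none of them 2-fold. Smc1a was at 41.5, 48.0 and 41.5 FPKM in NIH-3T3 SHHN and at 41.7, 40.5 and 40.5 FPKM in NIH-3T3 control. MLg libraries held 58.9, 59.95 and 60.2 FPKM under SHHN and 36.6, 35.7 and 40.2 FPKM with vehicle. The NIH-3T3 groups overlapped, and the MLg groups lay far apart. In limma the log2 fold change was 0.09 in NIH-3T3 (SE 0.10, 95% interval -0.12 to 0.30, adjusted p = 0.517) and 0.67 in MLg (SE 0.10, adjusted p = 0.00015). The difference of -0.57 between the lines passed (SE 0.14, adjusted p = 0.0132).

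Smc3 lies at chr19:53600396-53645831 and was at 40.2, 45.2 and 49.4 FPKM in NIH-3T3 SHHN and at 47.8, 37.0 and 49.8 FPKM in NIH-3T3 control. Under SHHN, MLg stood at 47.3, 51.8 and 53.2 FPKM, and in control at 26.5, 29.7 and 38.5 FPKM. Again NIH-3T3 overlapped fully and MLg did not. The log2 fold change was 0.01 in NIH-3T3 (SE 0.15, 95% interval -0.31 to 0.33, adjusted p = 0.978) and 0.69 in MLg (SE 0.15, adjusted p = 0.00393). The difference of -0.68 passed narrowly (SE 0.21, adjusted p = 0.0495), and it passed in 8 of 21 alternatives, with adjusted p between 0.0143 and 0.249.

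Rad21 was at 73.8, 74.9 and 80.5 FPKM in NIH-3T3 SHHN and at 51.4, 41.5 and 56.2 FPKM in NIH-3T3 control. In MLg it was at 92.8, 85.3 and 98.3 FPKM under SHHN and at 45.8, 49.2 and 53.6 FPKM in control. The 2 control groups overlapped each other, and both SHHN groups lay above them. Its log2 fold change was 0.63 in NIH-3T3 (SE 0.12, adjusted p = 0.00129) and 0.89 in MLg (SE 0.12, adjusted p = 8.75e-05). The ratio of Rad21 to Smc3 was 1.71 ± 0.114 in NIH-3T3 SHHN and 1.11 ± 0.0282 in NIH-3T3 control, with 1.82 ± 0.157 in MLg SHHN and 1.59 ± 0.179 in MLg control (SD, n = 3 each). The ratio of Smc4 to Smc3, which sets the condensin core beside the cohesin core, was 0.950 ± 0.123 in NIH-3T3 SHHN and 0.425 ± 0.0358 in NIH-3T3 control, with 1.01 ± 0.127 in MLg SHHN and 0.723 ± 0.0192 in MLg control.

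**Figure D4:**
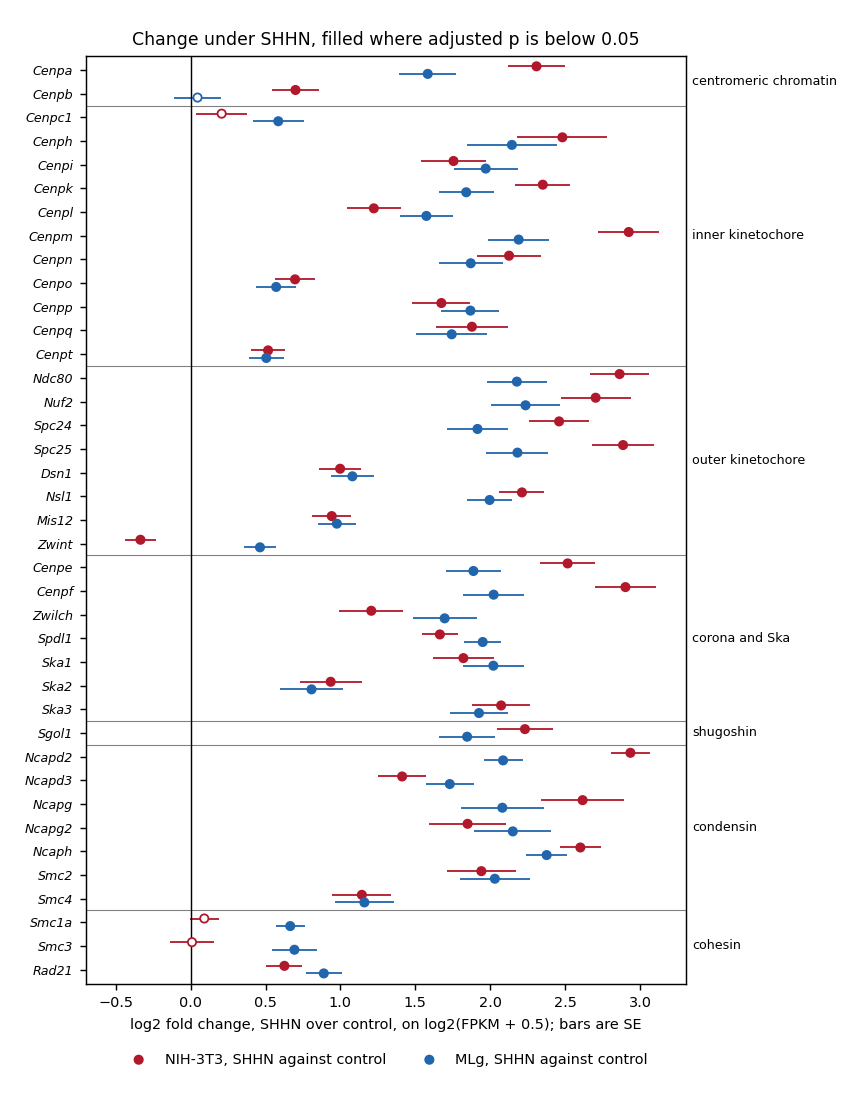
Log2 fold change of SHHN over control, on log2(FPKM + 0.5), for the 39 members by role, in NIH-3T3 (red, upper point of each pair) and MLg (blue, lower point); bars are SE and filled points have an adjusted p below 0.05. Most points lie between 0.5 and 3 in both lines, and the open points are Cenpb in MLg and Cenpc1, Smc1a and Smc3 in NIH-3T3.

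The order of the members by size of change was much the same in the lines. Across the 39 members the log2 fold changes in NIH-3T3 and MLg had a Pearson correlation of 0.90 and a Spearman correlation of 0.87, against 0.55 and 0.41 across all 12379 genes; genes are not independent replicates, and the lines share no library. The change was larger in NIH-3T3 for 22 members and in MLg for 17. Members that were low in control had the larger changes: the control level on the log2 scale and the log2 fold change had a Pearson correlation of -0.73 in each line, with Spearman correlations of -0.57 in NIH-3T3 and -0.44 in MLg. The control libraries enter both measures of that relation.

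The test of the difference between the lines passed for 4 of the 39 members. Ncapd2 had the larger change in NIH-3T3, as did 7.48% of all genes by that test. Zwint, Smc1a and Smc3 had the larger value in MLg, as did 5.95% of all genes. Both directions together, the members passed no more often than genes at large. The median difference over the members was 0.13. For the other 35 a miss does not show that the lines responded alike; the SE of the difference ran to 0.43 for Cenph, whose 95% interval spanned -0.58 to 1.25.

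Without ligand, the members were mostly lower in NIH-3T3 than in MLg. In NIH-3T3 control against MLg control, 25 members were lower, 2 (Zwint and Smc3) were higher and 12 did not pass, against 25.7% of all genes lower and 24.4% higher. The median difference of the members was -0.60 on the log2 scale. Spc24 differed most, by -1.73 (SE 0.20, adjusted p = 8.29e-06), then Cenpk by -1.55 (SE 0.19, adjusted p = 9.59e-06) and Ncapd2 by -1.49 (SE 0.13, adjusted p = 4.73e-07). Zwint was higher in NIH-3T3 control by 0.43 (SE 0.10, adjusted p = 0.0034) and Smc3 by 0.51 (SE 0.15, adjusted p = 0.0127). For 25 members every NIH-3T3 control library lay below every MLg control library, against 27.0% of all genes, and for 2 (Zwint and Smc1a) every one lay above, against 25.2%.

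Under SHHN most members were again lower in NIH-3T3. Of the 39 members 37 had a lower mean log2 level in NIH-3T3 SHHN than in MLg SHHN, with a median log2 difference of -0.38. That count is of signs only. The SHHN groups were not tested against each other, and no share over all genes is given for the count. The libraries did not overlap for 25 of the 37, against 32.7% of all genes. Some members changed sides: Zwint and Smc3 averaged 69.4 and 44.9 FPKM in NIH-3T3 SHHN, against 89.2 and 50.8 FPKM in MLg SHHN, while Cenpa averaged 36.1 FPKM in NIH-3T3 SHHN and 31.8 FPKM in MLg SHHN. Cenpb was the 1 member for which every NIH-3T3 SHHN library lay above every MLg SHHN library, against 28.6% of all genes. Rad21, Smc1a and Ncapd2 were among those lower in NIH-3T3 SHHN, at 76.4, 43.7 and 33.2 FPKM on average, against 92.1, 59.7 and 52.0 FPKM in MLg SHHN.

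Genes that work with the members were taken from lists of their own. Of 14 further kinetochore and centromere genes, 12 rose and 2 did not pass in each line, against 16.6% of all genes that rose in NIH-3T3 and 12.8% in MLg. Kntc1, an RZZ subunit whose fly counterpart is Rod, had the largest log2 fold change, 2.66 in NIH-3T3 and 2.44 in MLg, followed by Oip5, which helps to place CENP-A, with 2.27 and 2.08. In NIH-3T3 the smallest changes were those of Zw10 (0.15, adjusted p = 0.401) and Cenpw (0.48, adjusted p = 0.111), and in MLg those of Cenpv (0.03, adjusted p = 0.956) and Itgb3bp (0.16, adjusted p = 0.578). Cenpw, a histone-fold partner of CENP-T, averaged 5.17 FPKM in NIH-3T3 SHHN and 3.50 FPKM in NIH-3T3 control, with 10.4 FPKM in MLg SHHN and 3.18 FPKM in MLg control. Its difference between lines passed (-1.09, SE 0.30, adjusted p = 0.0301). Hjurp, the chaperone that deposits CENP-A, had a difference of -1.11 (SE 0.26, adjusted p = 0.0125), with log2 fold changes of 0.67 in NIH-3T3 and 1.78 in MLg.

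Of 10 spindle checkpoint and chromosomal passenger genes, 9 rose in NIH-3T3 and 10 in MLg, against 16.6% and 12.8% of all genes. Aurkb, the kinase that corrects faulty attachments, had the largest change, 3.12 in NIH-3T3 and 2.35 in MLg. Birc5, the passenger subunit survivin, had 2.70 in NIH-3T3 and 2.14 in MLg. Mad1l1 and Bub3 had the smallest, 0.34 (adjusted p = 0.0552) and 0.35 (adjusted p = 0.0269) in NIH-3T3 and 0.58 and 0.47 in MLg. Larger changes in NIH-3T3 passed the test of the difference for Aurkb (0.77, adjusted p = 0.0315) and Cdca8 (0.88, adjusted p = 0.0264).

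A list of 14 partners and regulators of cohesin had the condensin II subunit Ncaph2 among them. Of the 14, 5 rose, 1 fell and 8 did not pass in NIH-3T3, and 6 rose and 8 did not pass in MLg. Over all genes 16.6% rose and 14.8% fell in NIH-3T3, and 12.8% rose and 10.0% fell in MLg. Esco2, which acetylates cohesin during replication, rose by 2.76 in each line, and Espl1, separase, by 2.69 and 2.15 in NIH-3T3 and MLg. Cdca5, sororin, rose by 2.44 and 2.07, and Pttg1, securin, by 1.79 and 1.47. The subunits Stag1 and Stag2, the release factors Wapal and Pds5a, the loader Nipbl, and Esco1 and Hdac8 did not pass in either line. Ncaph2 rose by 0.59 and 0.65, and the Wapal partner Pds5b by 0.58 in MLg, with 0.03 in NIH-3T3 (adjusted p = 0.936). Mau2, the loader's partner, fell by 0.45 in NIH-3T3 (adjusted p = 0.00395) and had -0.16 in MLg (adjusted p = 0.326). Of the meiotic counterparts, Smc1b, Rec8 and Rad21l were listed at 0 in all 12 libraries, and Stag3 reached at most 0.596 FPKM.

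Other values that moved with the members were these. All 6 proliferation genes looked at rose in both lines, against 16.6% of all genes in NIH-3T3 and 12.8% in MLg. Their log2 fold changes were 1.68 to 2.97 in NIH-3T3 and 1.71 to 3.14 in MLg. Mki67 averaged 22.1 FPKM in NIH-3T3 SHHN and 2.54 FPKM in NIH-3T3 control, with 44.7 FPKM in MLg SHHN and 8.29 FPKM in MLg control. The part of cell number or cell cycle stage in the members' change was not tested. The hedgehog targets Gli1 and Ptch1 rose in both lines, with log2 fold changes for Gli1 of 7.87 in NIH-3T3 and 6.83 in MLg. All 7 fibroblast markers were present. In NIH-3T3 5 of them fell and in MLg 2, against 14.8% and 10.0% of all genes. Their summed levels were 8374 to 10020 FPKM in NIH-3T3 SHHN and 12390 to 14060 FPKM in NIH-3T3 control. In MLg they were 8378 to 10260 FPKM under SHHN and 9063 to 10690 FPKM in control. Of 5 epithelial markers Epcam, Krt18 and Nkx2-1 were listed at 0 throughout and the sum was at most 0.620 FPKM. Of 4 leukocyte markers Cd3e was listed at 0 and the sum was 0.384 to 1.86 FPKM. Of 4 endothelial markers Pecam1 and Kdr were at most 0.137 FPKM, while the log2 fold change of Cdh5 was 3.72 in NIH-3T3 and 3.43 in MLg and that of Tek 1.38 in MLg. Their summed level was 6.73 to 25.3 FPKM in NIH-3T3 SHHN, 5.75 to 7.93 FPKM in NIH-3T3 control, 5.78 to 6.51 FPKM in MLg SHHN and 0.101 to 0.154 FPKM in MLg control. Of 3 smooth muscle markers Acta2 was the one tested, and its change under SHHN did not pass in either line. Acta2 was well above 0, averaging 79.9 FPKM in NIH-3T3 SHHN and 104 FPKM in NIH-3T3 control. In MLg it averaged 292.5 FPKM under SHHN and 314.8 FPKM in control.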

How the data were processed

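Bulk RNA-seq of 12 libraries, 3 in each of 4 groups, was available as 1 table of FPKM per gene. Per the submitters' processing notes, the tools were bcl2fastq, TopHat2 2.0.12 and Cufflinks 2.2.1 with build mm10; how these were set, which gene annotation was used and whether libraries were scaled to each other are not given in the sources used here. FPKM values were used as the authors deposited them, apart from 1 row without values. No counts were analysed here, so the depth is unknown, and no counting interval is given.

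The 12379 genes that reached 0.5 FPKM in 3 or more libraries were tested with limma 3.58.1 in R 4.3.3 on log2(FPKM + 0.5), with a variance trend and 4 group means. SHHN was set against control within NIH-3T3 and within MLg, the MLg effect was subtracted from the NIH-3T3 effect, and the controls of the lines were set against each other (NIH-3T3 over MLg). Tests were two-sided, with Benjamini-Hochberg adjustment over all of them and a threshold of 0.05; a 95% interval is that of the same fit. The pseudocount understates the change of low genes. The code was tested on simulated data.

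The members, the companion and marker lists and the motifs were chosen with earlier results of these data known. All 40 members were to be named; library values are given for the members with the largest or smallest change in a role, those not called in a line and those whose effect differed between lines. The Sgol2a row and the exon overlaps (GENCODE M21, GRCm38) were added after the values were seen. No batch was given in the labels.

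Same-numbered MLg libraries deviated together from their group means, with correlations of 0.13, 0.16 and 0.24 over genes. MLg libraries with unlike numbers had -0.18 to 0.01. In NIH-3T3 the same-numbered correlations were -0.00, -0.10 and 0.03, against -0.12 to 0.14 for unlike numbers. The main fit did not pair libraries by replicate number in either line. Replicate numbers entered only through the replicate block, for both lines, among the alternatives. Alternatives were other pseudocounts, filters and scalings, a replicate block, robust variances, 1 line per fit, a test against a fold of 1.2 and leaving out each library.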

Additional observations from a re-analysis of the deposited data

Results flagged for a closer look

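The SHHN effect differed between NIH-3T3 and MLg for 4 members, by limma's test of the difference itself (NIH-3T3 effect minus MLg effect, log2). Of the 39 members tested, 1 had a positive and 3 a negative difference that passed, against 7.48% and 5.95% of all genes. Zwint differed by -0.80 and fell in NIH-3T3 while it rose in MLg. Smc3 differed by -0.68 and Smc1a by -0.57, and both rose in MLg and did not pass in NIH-3T3. The Smc3 difference passed in 8 of 21 alternatives. Ncapd2 differed by 0.85 and rose in both lines, more in NIH-3T3. With 3 libraries per group, no test of single libraries that stand apart was made. NIH-3T3 control replicate 2 had the lowest mean Spearman correlation with its own group (0.9747, against 0.9808 to 0.993 in the other libraries).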

How the results depend on the processing

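The count of members higher under SHHN was 35 in NIH-3T3 and 36 to 38 in MLg whichever library was left out. With the replicate block, 35 members were higher and 1 lower in NIH-3T3 and 38 higher in MLg; the block changed 2 calls, adding Cenpb to the difference between lines (2 members higher) and Ska2 to the comparison of controls (adjusted p = 0.018), and no other. The NIH-3T3 median was 2.06 with a pseudocount of 0.1 and 1.67 with 1, and 1.68 to 1.99 without single libraries; the MLg median was 1.68 with a pseudocount of 1 and 1.74 to 1.97 without single libraries. No member was lower in NIH-3T3 (0) in the test against a fold of 1.2 or with 1 line per fit, and 0 to 1 was lower without single libraries; with 1 line per fit 1182 of all genes were lower. Tested against a fold of 1.2, 34 members were higher in NIH-3T3, without Cenpt, and 32 in MLg, without Cenpc1, Cenpo, Cenpt, Zwint, Ska2 and Smc3; the differences of Ncapd2, Smc1a and Smc3 did not pass either (adjusted p = 0.0535, 0.168 and 0.249). The same test called 1203 genes higher and 804 lower in NIH-3T3, 933 and 541 in MLg, 436 and 349 for the difference, and 1873 and 2076 between the controls. By that test 0 members were higher and 1 lower for the difference, and 0 were higher between the controls. The lower calls of Cenpa, Cenpn, Dsn1, Nsl1, Zwilch, Ska3, Ncapd3 and Smc2 between the controls also ended in that test. For the difference, 2 members were higher with a pseudocount of 0.1, quantile normalization or median-ratio scaling. Without single libraries, 1 to 4 were higher, with 608 to 1101 of all genes higher and 485 to 1244 lower. Leaving out libraries gave 815 to 1454 genes lower in MLg. Between the controls it gave 1 to 2 members higher and 20 to 25 lower. Values near 0 changed sign: leaving out libraries, Smc3 in NIH-3T3 ran from -0.122 (without NIH-3T3 control replicate 2; it was -0.061 without NIH-3T3 SHHN replicate 3) to 0.089, and Cenpb in MLg ran from -0.085 (without MLg control replicate 3; it was -0.050 if MLg SHHN replicate 2 was left out) to 0.169. Fewer libraries were in those fits; the cause was otherwise not tested. FPKM alone gives no depth, so low values such as those of Cenpk and Ska3 in NIH-3T3 control carry an unknown counting error.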
